A study of Mus musculus and Homo sapiens with 15 samples.

Results

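The sites described here are 3160 genomic cytosines that were read as edited in every library made from mouse brain. A site was kept when its chromosome, start and strand stood in the site lists of all 9 brain libraries and it did not lie on chromosome M. The 9 lists together held 3125897 such positions, so the recurrent sites were 0.101% of them. A list names only positions with at least 1 edited read, so the rule used the edited reads of every library but no difference between groups, and a cytosine left unedited in any 1 library, however strongly it was edited elsewhere, is not among these sites.

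The study applied INSCRIBE, a method that directs RNA editing to the RNAs held by a protein in fixed material, to frozen coronal slices of the brains of 2-month-old female C57BL/6J mice fixed with PFA. The 3 RBFOX2-INSCRIBE slices were given a rabbit antibody against RBFOX2 and then Apo1-Nb, a fusion of rat APOBEC1 to a nanobody that recognises rabbit IgG. The 3 enzyme-only slices were given Apo1-Nb without the antibody, and the 3 buffer-only slices were given neither. The slices came from at most 2 animals and possibly from 1, and the labels do not say which slice came from which, so every p-value below measures the spread between slices, which may be technical. Total RNA was depleted of ribosomal RNA, and edited sites were called by the authors with SAILOR, which gives each site a number of edited reads and a number of covering reads. The edit fraction is the percentage of covering reads that carry the edit.

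APOBEC1 is a cytidine deaminase that turns cytosine into uracil, and it is known to prefer a cytosine that follows an A or a U. RBFOX2 is a splicing regulator of the RBFOX family, which is strongly expressed in neurons as a family and binds the motif UGCAUG in introns and 3' UTRs. Sequencing errors, genomic differences from the reference and misplaced reads can also read as C-to-U changes, and buffer-only slices hold all of these without the enzyme.

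The windows below show the sites on which the comparisons turn, each 29 bases of the strand that carries the RNA, with the edited cytosine in capitals, read from the RefSeq genome of GRCm38 and written as DNA. The first set is 6 of the 7 sites that were higher in RBFOX2-INSCRIBE than in enzyme-only slices, together with the Snap25 site that had the second largest rise of RBFOX2-INSCRIBE over buffer-only slices.
Meg3, chr12:109566294-109566322, plus strand: aaagccagtggtgaCttcaactgactttt
Malat1 site 1, chr19:5797844-5797872, minus strand: ggagctgctcaggaCtttgcatataagcg
Malat1 site 2, chr19:5797967-5797995, minus strand: agtttaaatgcttaCgatcatctcatcca
Malat1 site 3, chr19:5797818-5797846, minus strand: gcgcttgcctctgtCttctgttctgctag
Ywhah, chr5:33027619-33027647, plus strand: ctaatggaaactgaCacagcgacaactca
Snap25 site 1, chr2:136781894-136781922, plus strand: agctgtgtcaccttCtttctgtcaaccta
Snap25 site 2, chr2:136782095-136782123, plus strand: ctatgttttggagaCaatactcttgctat

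The second set holds sites that were higher in enzyme-only than in buffer-only slices and sites that did not pass the test in any comparison despite very high depth or fraction.
Sparcl1, chr5:104079471-104079499, minus strand: ccgcttcagaaataCgagcagccatgaca
Slc1a2, chr2:102782515-102782543, plus strand: agtcacttccatcaCatccttgtctgctt
App, chr16:84954803-84954831, minus strand: agtattccaaatgaCttagaaaattcttt
Gm26917 site 1, chr17:39845358-39845386, plus strand: gtctacctccctctCcccgaggtctcagg
Gm26917 site 2, chr17:39843275-39843303, plus strand: tcgcttgaccatgtCcccagagtcggtgg
Rn7sk, chr9:78175398-78175426, minus strand: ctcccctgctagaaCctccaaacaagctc
Hjurp, chr1:88274914-88274942, minus strand: tgggatgacctcctCctctgcccttaccc

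The recurrent sites were deep and weakly edited. The median site had 13208 covering reads per library and a mean edit fraction of 0.0414% over the 9 libraries, and the first and ninth deciles of the sites were 1034 and 52501 covering reads and 0.025% and 0.78% edited. The extremes were 8.11 and 1387547 covering reads per library and 0.00496% and 100% edited, and the edited reads summed over 9 libraries ran from 9 to 386822 with a median of 56. Reads were also summed over the listed positions of a library outside chromosome M. These few positions held 45.1% to 60.1% of the covering and 18.6% to 26.4% of the edited reads so summed. A read counts at each listed position it covers, so these are not shares of the sequenced reads. For comparison, the median listed position of a library had 52 to 81 covering reads.

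Because every library had to show at least 1 edited read, a shallow site could be listed only at a high fraction, and fraction fell with depth across the sites. The 2958 sites under 5% (93.6%) had a median of 15157 covering reads, the 93 sites between 5% and 20% had 49.3, the 84 sites between 20% and 80% had 20.6, and the 25 sites at or above 80% had 29.6. The lower left of the plot of depth against fraction is empty for this reason. Median depth was 2964 covering reads per library for sites in 3' UTRs, 12490 for Malat1 and 30746 for the ribosomal RNA locus.

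**Figure D1:**
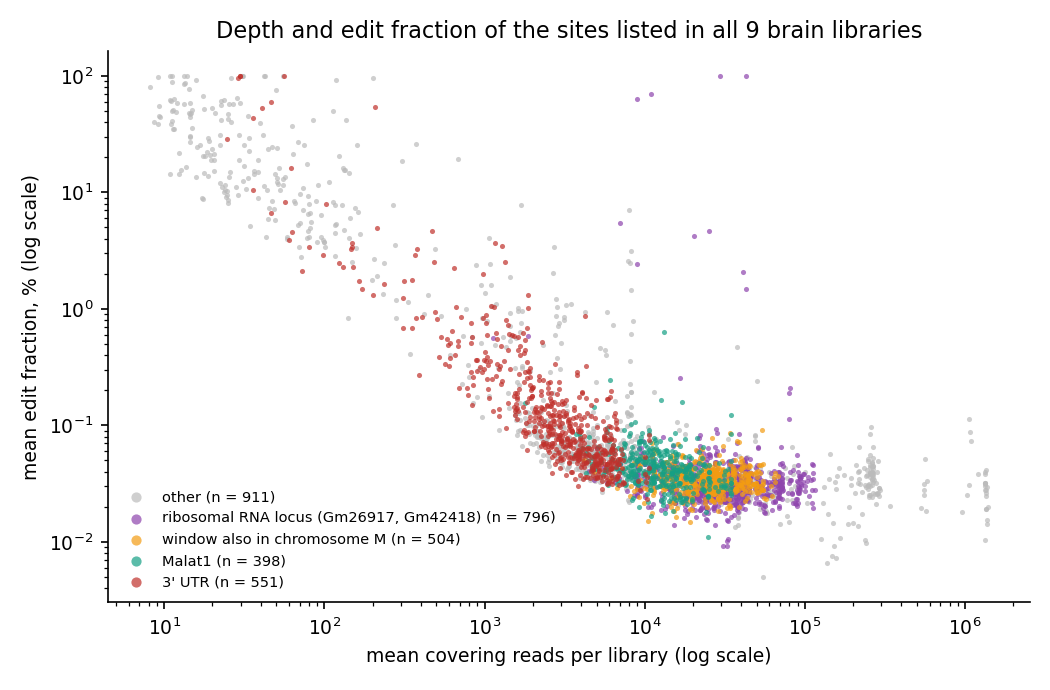
Each point is 1 of the 3160 sites, placed by its mean covering reads per library (x axis, log scale) and its mean edit fraction in percent over 9 libraries (y axis, log scale), coloured by gene or region. The bulk lies near 0.0414% at about 13208 covering reads, and the 202 sites at or above 5% lie almost all at the shallow end.

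Averaged over the sites of a library, editing differed little between groups. The median fraction was 0.0404%, 0.0388% and 0.0405% in the RBFOX2-INSCRIBE libraries, 0.0456%, 0.0436% and 0.0438% in the enzyme-only libraries, and 0.0367%, 0.0366% and 0.0371% in the buffer-only libraries. All 3 enzyme-only libraries were above all 3 RBFOX2-INSCRIBE libraries, which were above all 3 buffer-only libraries. The group means were 0.0399% ± 0.000979, 0.0443% ± 0.0011 and 0.0368% ± 0.000276 (SD, n = 3 each) in that order of RBFOX2-INSCRIBE, enzyme-only and buffer-only. Summed edited over summed covering reads gave 0.115% ± 0.00341, 0.125% ± 0.00215 and 0.115% ± 0.00181. These are descriptions of sites selected by their edited reads, and no test was made of them.

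The order of the groups was not the same for every kind of site. In the 551 sites of 3' UTRs the library medians averaged 0.106% ± 0.0122 in RBFOX2-INSCRIBE, 0.102% ± 0.000398 in enzyme-only and 0.0648% ± 0.00803 in buffer-only slices. In the 796 sites of Gm26917 and Gm42418 they averaged 0.0291% ± 0.00047, 0.033% ± 0.0018 and 0.0285% ± 0.000946. Thus the 3' UTR sites of slices given enzyme stood clear of buffer-only slices, whereas at the ribosomal RNA locus only the enzyme-only slices did. With the ribosomal RNA locus and the sites shared with chromosome M left out, the remaining 1860 sites averaged 0.0619% ± 0.00337, 0.0653% ± 0.000238 and 0.0503% ± 0.00316.

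Most of the recurrent sites lay in abundant non-coding RNA. By the GENCODE annotation, 2086 sites (66%) were in exons of non-coding genes, 551 (17.4%) in 3' UTRs, 202 (6.39%) in coding sequence, 109 in 5' UTRs, 107 in introns and 105 outside genes. A single gene could be named on the strand for 2920 sites, which fell in 223 genes. The authors' labelled edit clusters covered 392 of the sites, and for 390 of these some annotated gene of the position was among the cluster's labels. Clusters called in the single libraries held 5.28% to 8.62% of their edited reads in the few clusters that overlapped a recurrent site.

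The 8 genes with the most sites were Gm26917 with 656, Malat1 with 398, Gm10925 with 143, Gm28437 with 140, Gm42418 with 140, Gm29216 with 101, Gm28661 with 98 and Slc1a2 with 93. Gm26917 (chr17:39843013-39846341) and Gm42418 (chr17:39846958-39848788) are annotated as lincRNAs over the chromosome 17 copy of the ribosomal RNA precursor. The median site of Gm26917 had 31840 covering reads and a fraction of 0.0305%. Malat1 (chr19:5795690-5802672), a nuclear lncRNA of speckles, had a median of 12490 covering reads and 0.0413%. Gm10925, Gm28437, Gm29216 and Gm28661 are pseudogenes on chromosome 1, and for all of their sites the 31 bases around the cytosine also occur in chromosome M. In all, 504 sites (15.9%) had such a window, so their reads cannot be assigned to the nucleus, and their values are uncertain for that reason.

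Slc1a2, the main glutamate transporter of astrocytes, was the protein-coding gene with the most sites, 91 of the 93 in the 3' UTR, at a median of 1897 covering reads and 0.175%. Snap25, a SNARE protein of synaptic vesicle fusion, had 57 sites with a median fraction of 0.0845%. Camk2a, a postsynaptic kinase, had 49 sites with a median of 0.0632%. Of the small structured RNAs, Rn7sk, which holds the elongation factor P-TEFb inactive, had 40 sites, and Rn7s1, the RNA of the signal recognition particle, had 29 sites at a median of 1033109 covering reads.

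The sites of highest fraction did not differ between groups by the test described below. Gm26917 site 2 was read as edited in 99.9% to 100% of reads of every library, with 386822 edited reads in all. Another Gm26917 site, at position 39843085, had 68.4%, 69.2% and 68.7% in RBFOX2-INSCRIBE, 69.3%, 69.2% and 68.9% in enzyme-only and 70.1%, 69% and 69.6% in buffer-only slices. Gm42418 at position 39848243, where an antisense gene is annotated, had 62.2% to 65% over the 9 libraries. The high fractions at these 3 sites were present without the enzyme at about the same level.

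The same held for shallower sites at high fraction. The Hjurp site, in a transcript of a centromere chaperone, averaged 64.3%, 61.5% and 69.2% in RBFOX2-INSCRIBE, enzyme-only and buffer-only slices at a mean of 28.3 covering reads. Dlgap1, a postsynaptic scaffold, had a 3' UTR site at 50.4%, 54.7% and 57.2%, and Snhg14, a snoRNA host transcript, had a site at 7.91%, 7.95% and 7.55%. Pisd-ps1, a pseudogene, had a site at 20.4%, 18.5% and 19.3%. At Hjurp and Snhg14 the fractions of all groups overlapped. Dlgap1 was lower in every RBFOX2-INSCRIBE slice than in every enzyme-only and buffer-only slice (adjusted p = 0.908 and 0.547, edgeR), and Pisd-ps1 was higher in every RBFOX2-INSCRIBE than in every enzyme-only slice (adjusted p = 0.884). Over the 84 sites between 20% and 80% the group medians were 40.6%, 41.3% and 39.4%, and 8 of the 25 sites at or above 80% were at 100% in every library.

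The base before the cytosine set the recurrent sites apart from positions listed in 7 or 8 libraries, but hardly from those listed in 1. It also differed between genes, and was not set beside all cytosines of those genes. An A or U preceded the cytosine in 1722 of 3154 sites with a known base, or 54.6% (95% Wilson interval 52.9% to 56.3%). Among positions listed in 1 library the share was 56%, among those listed in 7 it was 65.9% (64.5% to 67.3%) and among those listed in 8 it was 63.1% (61.2% to 64.9%). A G followed the cytosine in 19.3% of the recurrent sites, against 12.3% of positions listed in 8 libraries and 7.12% of those listed in 1. The share with A or U before was 37% in Gm26917, 53.5% in Malat1, 73.7% in Snap25, 77.3% over all 3' UTR sites and 95.7% (89.5% to 98.3%) in Slc1a2. Taking 1 site per gene gave 61.9% (55.4% to 68%).

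**Figure D2:**
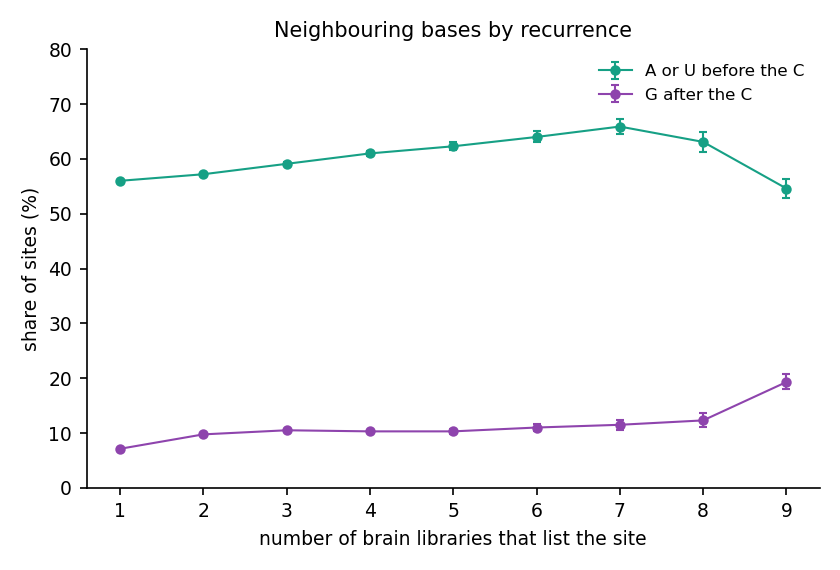
Points give the share of sites in percent (y axis) with an A or U before the cytosine and with a G after it, by the number of brain libraries that list the position (x axis), and bars are 95% Wilson intervals. The first share climbs to 65.9% at 7 libraries and is 54.6% at 9, and the second is 19.3% at 9.

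To ask which sites depended on the antibody, edited and unedited reads of RBFOX2-INSCRIBE and enzyme-only slices were compared at every position listed in all 6 libraries with at least 10 covering reads in each. The test was edgeR's quasi-likelihood F test with Benjamini-Hochberg adjustment over all positions tested, two-sided, and the log2 values given with a standard error are fitted differences in the odds that a read is edited. Of 3125 recurrent sites tested, 7 were called, all higher in RBFOX2-INSCRIBE, and none was lower, while 228 had an unadjusted p under 0.05. The median recurrent site had 6 or 7 edited reads in each of these libraries. In all 3 comparisons a tested position had at least 1 edited read in every library. A fall could go no lower than that, while a rise had no such bound. The calls in the 2 directions therefore cannot be weighed against each other. Over all 7459 positions tested the called share was 0.295% in either direction, 0.282% higher and 0.0134% lower, against 0.224% of the recurrent sites. All positions tested include the recurrent sites themselves, here and in the other comparisons. Some alternatives gave another split. Edited reads alone gave 6 higher and 12 lower with TMM scaling, and 6 higher and 11 lower with median-of-ratios factors. All 9 libraries in 1 fit gave 11 higher and 2 lower. A minimum of 5 edited reads in every library, described below, gave 8 higher and 18 lower. The median log2 difference was -0.116 over the recurrent sites and -0.0803 over all positions tested.

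The 7 sites lay in 5 genes of brain RNA: Meg3 and Malat1, which are nuclear lncRNAs, and Snap25, Camk2a and Ywhah, which code for synaptic or signalling proteins. All 7 had an A or U before the cytosine, 3 lay in 3' UTRs and the other 4 in the exons of lncRNAs. The fractions of the 2 groups did not overlap at any of the 7. Non-overlap by itself was common, at 13.3% of the recurrent sites tested and 12.9% of all positions tested.

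Meg3, an imprinted lncRNA expressed from the maternal allele, held the largest difference. Its site, at chromosome 12 position 109566308, had 58 of 1863, 46 of 2284 and 36 of 1374 reads edited in RBFOX2-INSCRIBE slices, or 3.11% (95% Wilson interval 2.42% to 4%), 2.01% (1.51% to 2.68%) and 2.62% (1.9% to 3.61%). Enzyme-only slices had 4 of 1537, 3 of 1596 and 1 of 1364, or 0.26%, 0.188% and 0.0733%. Buffer-only slices had 2 of 2273, 1 of 1429 and 2 of 1695, or 0.088%, 0.07% and 0.118%. Every RBFOX2-INSCRIBE slice was thus far above every other slice, and enzyme-only and buffer-only slices overlapped. The means were 2.58% ± 0.551, 0.174% ± 0.0943 and 0.092% ± 0.0243 (SD, n = 3 each), a ratio of 14.9 between RBFOX2-INSCRIBE and enzyme-only. The log2 difference was 3.81 ± 0.32 (SE) against enzyme-only (adjusted p = 1.040e-06, edgeR) and 4.71 ± 0.31 against buffer-only slices (adjusted p = 1.673e-12). Meg3 had 14 recurrent sites in all with a median fraction of 0.058%, and its site at 109566308 was the only one called. It lay in the confident clusters that the authors deposited for RBFOX2-INSCRIBE and in neither of the other 2 lists.

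The Malat1 sites were close together. Site 1, at chromosome 19 position 5797858, had 0.471%, 0.197% and 0.607% in RBFOX2-INSCRIBE, 0.0259%, 0.0663% and 0.0457% in enzyme-only and 0.0319%, 0.033% and 0.019% in buffer-only slices. Its log2 difference was 3.12 ± 0.44 against enzyme-only (adjusted p = 9.092e-04, edgeR). Site 2, at 5797981, had 0.6%, 0.431% and 0.7% in RBFOX2-INSCRIBE, 0.0367%, 0.139% and 0.154% in enzyme-only and 0.0525%, 0.017% and 0.0604% in buffer-only slices, with a log2 difference of 2.35 ± 0.32 (adjusted p = 9.092e-04). Site 3, at 5797832, had 0.184%, 0.116% and 0.142% against 0.0353%, 0.0342% and 0.0251% in enzyme-only slices, and 0.069%, 0.0115% and 0.0265% in buffer-only slices, with 2.16 ± 0.42 (adjusted p = 0.0258). At all 3 sites the enzyme-only and buffer-only slices overlapped, and RBFOX2-INSCRIBE slices stood above both.

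The 3 Malat1 sites bounded a stretch of 150 nt (chr19:5797832-5797981) that held 20 of the 398 Malat1 sites. The median site of the stretch was at 0.0917% in RBFOX2-INSCRIBE, 0.0476% in enzyme-only and 0.0376% in buffer-only slices. In RBFOX2-INSCRIBE against enzyme-only slices 15 of the 20 had a log2 value above 0 and 3 were called. In RBFOX2-INSCRIBE against buffer-only slices 18 were above 0 and 8 were called, and in enzyme-only against buffer-only slices 15 were above 0 and none was called. Because the stretch was drawn around called sites, these counts describe it and are not tested. Over all Malat1 sites the median log2 value of RBFOX2-INSCRIBE against enzyme-only slices was -0.05, with 184 of 398 above 0.

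The remaining 3 were in protein-coding 3' UTRs. Snap25 site 1, at chromosome 2 position 136781908, had 0.353%, 0.338% and 0.359% in RBFOX2-INSCRIBE, 0.092%, 0.11% and 0.126% in enzyme-only and 0.0901%, 0.017% and 0.0425% in buffer-only slices, and its log2 difference from enzyme-only was 1.67 ± 0.28 (adjusted p = 0.00722, edgeR). The RBFOX2-INSCRIBE slices were closer to each other here than at any other of the 7 sites. Camk2a at chromosome 18 position 60986351 had 0.33%, 0.549% and 0.702%, against 0.183%, 0.17% and 0.0771% in enzyme-only and 0.0272%, 0.0332% and 0.0458% in buffer-only slices, with 1.79 ± 0.37 (adjusted p = 0.0476). Ywhah, which codes for a 14-3-3 protein, had 0.625%, 0.606% and 0.745% at chromosome 5 position 33027633, against 0.27%, 0.244% and 0.0599% in enzyme-only and 0.0378%, 0.0518% and 0.157% in buffer-only slices, with 1.69 ± 0.36 (adjusted p = 0.0485).

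Only Meg3, Malat1 site 1 and Malat1 site 2 remained called whichever of the 6 libraries was left out. Camk2a, Malat1 site 3 and Snap25 site 1 each remained called in 1 of 6 such fits, with adjusted p up to 0.395, 0.189 and 0.0803, and Ywhah in none, with adjusted p between 0.0723 and 0.414. Several of the enzyme-only and buffer-only values rest on 1 to 8 edited reads, so their Wilson intervals are wide: the lowest enzyme-only value of Meg3, 0.0733%, has an interval of 0.0129% to 0.414%. Intervals cover counting error only, since reads without molecular identifiers are not independent molecules.

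**Figure D3:**
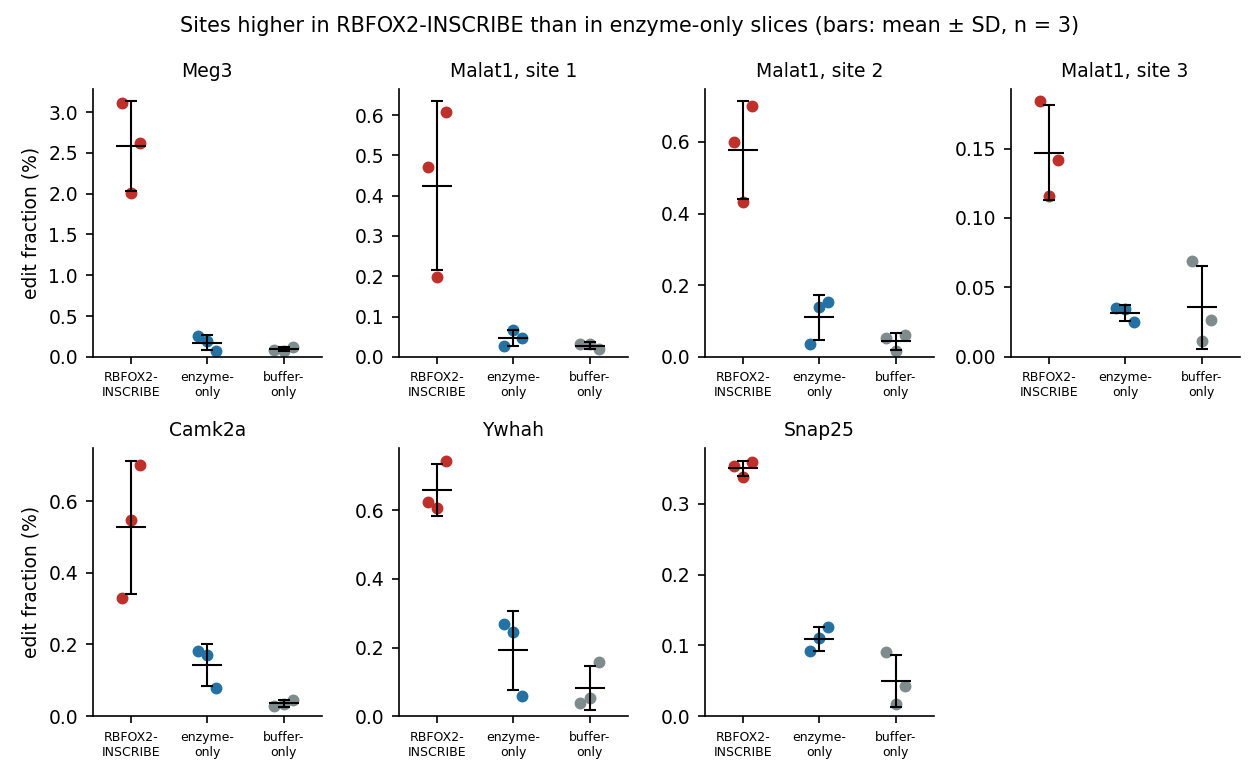
Each panel is 1 of the 7 sites called higher in RBFOX2-INSCRIBE than in enzyme-only slices, with the edit fraction in percent of each slice (points) and the group mean ± SD (bars, n = 3) on an axis starting at 0. The Meg3 slices given antibody lie between 2.01% and 3.11% and no other slice exceeds 0.26%, while the Ywhah and Camk2a groups lie closer together.

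The motif UGCAUG, searched for on the RNA strand within 50 nt on either side of the cytosine, occurred at 70 of the 3160 sites (2.22%). It occurred at 2 of the 7 sites higher in RBFOX2-INSCRIBE than in enzyme-only slices. At Malat1 site 2 it started 23 nt before the cytosine, and at the Camk2a site 22 nt after it. It was found at 1 of the 39 sites higher in enzyme-only and at 7 of the 59 higher in RBFOX2-INSCRIBE than in buffer-only slices, the other 5 of the 7 in Snap25, Sparcl1 (with a pair of sites), Calm3 and Gpm6a. A match is a description of letters in a window and was not tested.

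When only positions with at least 5 edited reads in every library were compared, the calls between RBFOX2-INSCRIBE and enzyme-only slices were of another kind. Of 1217 recurrent sites tested, 8 were higher in RBFOX2-INSCRIBE, in Snap25 (5), Malat1 (2) and Slc1a2 (1), and 18 were lower. The called shares over all 1521 positions tested were 0.723% higher and 1.25% lower. Of the 7 sites above only Snap25 site 1 had enough edited reads to be tested, and it was called again (adjusted p = 0.00163, edgeR). The 18 lower sites were 11 of Gm26917, 2 of Gm29216, 1 each of Gm42418, Gm24447, Gm10925 and Rn7s1, and 1 site with no single gene, with log2 values between -1.33 and -0.56. Gm26917 site 1 was among them, with 0.196%, 0.205% and 0.171% in RBFOX2-INSCRIBE, 0.348%, 0.267% and 0.241% in enzyme-only and 0.17%, 0.123% and 0.163% in buffer-only slices. With the same minimum, 41 recurrent sites were called higher in enzyme-only than in buffer-only slices, where 3.55% of all positions tested were called, and 18 of the 41 were in Gm26917. In RBFOX2-INSCRIBE over buffer-only slices 8 were called, 4 of them in Malat1, where 0.588% of all positions were.

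To ask which sites depended on the enzyme alone, enzyme-only and buffer-only slices were compared in the same way. Of 3118 recurrent sites tested, 39 were called (1.25%), all higher in enzyme-only, against 0.828% of all 4953 positions tested. The 4953 include these 3118 sites and 1031 positions of chromosome M, and 41 of the 4953 were called. No site was called lower by edgeR, limma or DESeq2, 1 was with edited reads alone under either scaling, and 353 had an unadjusted p under 0.05 in either direction. The fractions did not overlap at 518 recurrent sites (16.6%), against 15.2% of all positions tested. The median log2 difference was 0.23 over the recurrent sites and 0.236 over all positions tested. Of the 39 sites, 17 lay in 3' UTRs, 37 had an A or U before the cytosine, and a single gene could be named for 37 of them, 12 genes in all: Gm26917 (10), Slc1a2 (6), Malat1 and Snap25 (5 each), Gm42418 (3), Sparcl1 (2) and 1 each of App, Cyfip2, Slc17a7, Rtn1, Rn7s1 and Gm24447.

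Sparcl1, a secreted matrix protein made by astrocytes and some neurons, held the site with the largest rise. At chromosome 5 position 104079485 it had 58 of 1101, 71 of 1186 and 48 of 1008 reads edited in enzyme-only slices, or 5.27%, 5.99% and 4.76%, against 5 of 1409, 8 of 1122 and 5 of 854, or 0.355%, 0.713% and 0.585%, in buffer-only slices. RBFOX2-INSCRIBE slices had 4.74%, 4.74% and 5.68%. Both groups given enzyme were at the same level and well apart from buffer-only slices. The log2 difference was 3.38 ± 0.2 for enzyme-only over buffer-only slices (adjusted p = 1.480e-12, edgeR), 3.28 ± 0.21 for RBFOX2-INSCRIBE over buffer-only (9.579e-13) and -0.1 ± 0.12 for RBFOX2-INSCRIBE over enzyme-only slices (0.984).

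The Slc1a2 site at chromosome 2 position 102782529 had 0.408%, 0.628% and 0.43% in enzyme-only slices, against 0.0374%, 0.0456% and 0.0563% in buffer-only slices, which rest on 1 edited read each, and its log2 difference was 3.31 ± 0.44 (adjusted p = 1.272e-04, edgeR). Its mean in RBFOX2-INSCRIBE was 0.266%, below the 0.489% of enzyme-only slices. The rise of RBFOX2-INSCRIBE over buffer-only slices was called, but was lost whichever library was left out (adjusted p between 0.0616 and 0.28, edgeR). App, the amyloid precursor protein, had 0.493%, 1.75% and 1.39% in enzyme-only, against 0.0963%, 0.123% and 0.168% in buffer-only slices at chromosome 16 position 84954817, with 3.18 ± 0.52 (adjusted p = 7.645e-04). Malat1 at position 5796720 was deeper, with 30 of 15655, 28 of 16947 and 46 of 15223 reads edited in enzyme-only slices, against 5 of 19974, 7 of 16569 and 6 of 14276 in buffer-only slices. This site was at 0.192%, 0.165% and 0.302% in enzyme-only, against 0.025%, 0.0422% and 0.042% in buffer-only slices (2.59 ± 0.35, adjusted p = 6.348e-05), and its mean in RBFOX2-INSCRIBE was 0.216%, close to the 0.22% of enzyme-only slices.

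The other named rises were in Snap25 site 2 (2.69 ± 0.49, adjusted p = 0.00487, edgeR), Cyfip2, a subunit of the WAVE actin regulatory complex (2.6 ± 0.49, 0.0321), Slc17a7, the vesicular glutamate transporter of excitatory neurons (2.4 ± 0.46, 0.0292), and Rtn1, a reticulon of the endoplasmic reticulum (2.39 ± 0.49, 0.029). Buffer-only means at these 4 sites were between 0.0368% and 0.07% and enzyme-only means between 0.23% and 0.446%. The calls at Cyfip2 and Slc17a7 were lost whichever library was left out, that of Rtn1 in 5 of 6 fits, and that of Snap25 site 2 in 3 of 6. Sparcl1, Slc1a2, App and Malat1 at 5796720 remained called in all 6, and over all 39 sites 12 did.

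The calls at the ribosomal RNA locus were of smaller size at great depth. The 10 Gm26917 sites had log2 differences between 0.9 and 2.11. Gm26917 site 1 had 269 of 77338, 227 of 85097 and 173 of 71814 reads edited in enzyme-only slices, against 148 of 86806, 95 of 77122 and 105 of 64440 in buffer-only slices, and its log2 difference was 0.9 ± 0.17 (adjusted p = 0.00501, edgeR). RBFOX2-INSCRIBE slices had 154 of 78552, 212 of 103196 and 132 of 76978, and against buffer-only slices the difference was 0.33 ± 0.15 (adjusted p = 0.504). Of the 13 sites of Gm26917 and Gm42418 called in enzyme-only slices, only Gm42418 at position 39848600 was also called in RBFOX2-INSCRIBE against buffer-only slices, at 2.29 ± 0.34 and 1.56 ± 0.36 for enzyme-only and RBFOX2-INSCRIBE (adjusted p = 2.222e-04 and 0.0138). With 1 library left out, the call at Gm26917 site 1 was lost in 2 of 6 fits (adjusted p up to 0.107), and that of Gm42418 at 39848600 was kept in all 6 for enzyme-only and lost in 3 of 6 for RBFOX2-INSCRIBE over buffer-only slices (adjusted p up to 0.123). Both comparisons share the buffer-only libraries, and the test of RBFOX2-INSCRIBE against enzyme-only slices at this site gave -0.74 ± 0.26 (adjusted p = 0.413).

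Antibody and enzyme together were compared with neither, in RBFOX2-INSCRIBE against buffer-only slices, a comparison that shares its libraries with both of the others. Of 3122 recurrent sites tested, 59 were called (1.89%), all higher in RBFOX2-INSCRIBE, against 1.33% of all 5172 positions tested in either direction and 1.31% higher. The fractions did not overlap at 477 recurrent sites (15.3%), against 14% of all positions tested, and 292 sites had an unadjusted p under 0.05. Edited reads alone gave 39 higher and 1 lower with TMM scaling, and 40 higher and 3 lower with median-of-ratios factors. The median log2 difference was 0.107, and 0.109 over all positions tested. The 59 sites lay in 19 named genes and 42 of them were in 3' UTRs. Snap25 had 15, Malat1 13, Slc1a2 8 and Sparcl1 3, and Camk2a, Gpm6a and Shank1 had 2 each.

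The largest rises were at Meg3, described above, and at Snap25 site 2, which had 0.653%, 0.382% and 0.602% in RBFOX2-INSCRIBE slices, against 0.0197%, 0.026% and 0.0648% in buffer-only slices (3.92 ± 0.41, adjusted p = 9.932e-08, edgeR). Its enzyme-only values, 0.147%, 0.227% and 0.33%, lay between the other groups without overlap, and the difference of RBFOX2-INSCRIBE from enzyme-only slices did not pass the test (1.23 ± 0.3, adjusted p = 0.118). Malat1 site 1 followed with 3.79 ± 0.41 (2.408e-07) and Camk2a with 3.77 ± 0.46 (1.438e-06). Slc1a2 at position 102789226 had 0.879%, 0.63% and 1.17% in RBFOX2-INSCRIBE, against 0.0458%, 0.11% and 0.0732% in buffer-only slices (3.43 ± 0.41, 1.153e-06), with enzyme-only slices at 0.529%, 0.656% and 0.793%.

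Sparcl1 at position 104079408 had 1.81%, 1.68% and 0.949% in RBFOX2-INSCRIBE, against 0.0791%, 0.206% and 0.132% in buffer-only slices (3.42 ± 0.41, adjusted p = 1.248e-06, edgeR). Gpm6a, a membrane glycoprotein of neurites, had 0.591%, 0.492% and 0.39%, against 0.0384%, 0.0489% and 0.0675% in buffer-only slices (3.21 ± 0.46, 6.267e-05). Ywhah followed with 3.15 ± 0.42 (6.062e-06). All 8 of these sites remained called whichever library was left out, as did 31 of the 59.

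Other protein-coding genes with 1 called site in this comparison had it in the 3' UTR. Kif5a, a kinesin of axonal transport, had 0.401%, 0.176% and 0.49%, against 0.0349%, 0.0394% and 0.0505% in buffer-only slices (2.96 ± 0.52, adjusted p = 5.546e-04, edgeR). Calm3, a calmodulin gene, differed by 2.73 ± 0.55 (0.00553), Glul, the glutamine synthetase of astrocytes, by 2.39 ± 0.5 (0.0118), Tspan7, a tetraspanin, by 2.31 ± 0.44 (0.00625) and Camk2n1, an inhibitor of CaM kinase II, by 2.35 ± 0.55 (0.0178). The Chn1 site (2.11 ± 0.49, 0.0313) overlaps the antisense gene Chn1os3. Of the 6 fits that each left out 1 library, Kif5a was called in all, Calm3 in 5, Tspan7 in 4, Glul and Chn1 in 3 and Camk2n1 in 2, with adjusted p up to 0.0187, 0.11, 0.237, 0.21, 0.466 and 0.458. At Sparcl1 position 104079423 the groups overlapped although the site was called (1.77 ± 0.4, 0.011), with 2.41%, 0.54% and 2.24% in RBFOX2-INSCRIBE, against 0.495%, 0.841% and 0.115% in buffer-only slices, and the call was kept in 2 of 6 fits (adjusted p up to 0.214). Kif5a, Calm3, Glul, Tspan7, Camk2n1, Chn1 and this Sparcl1 site were chosen for the text after their values were seen.

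**Figure D4:**
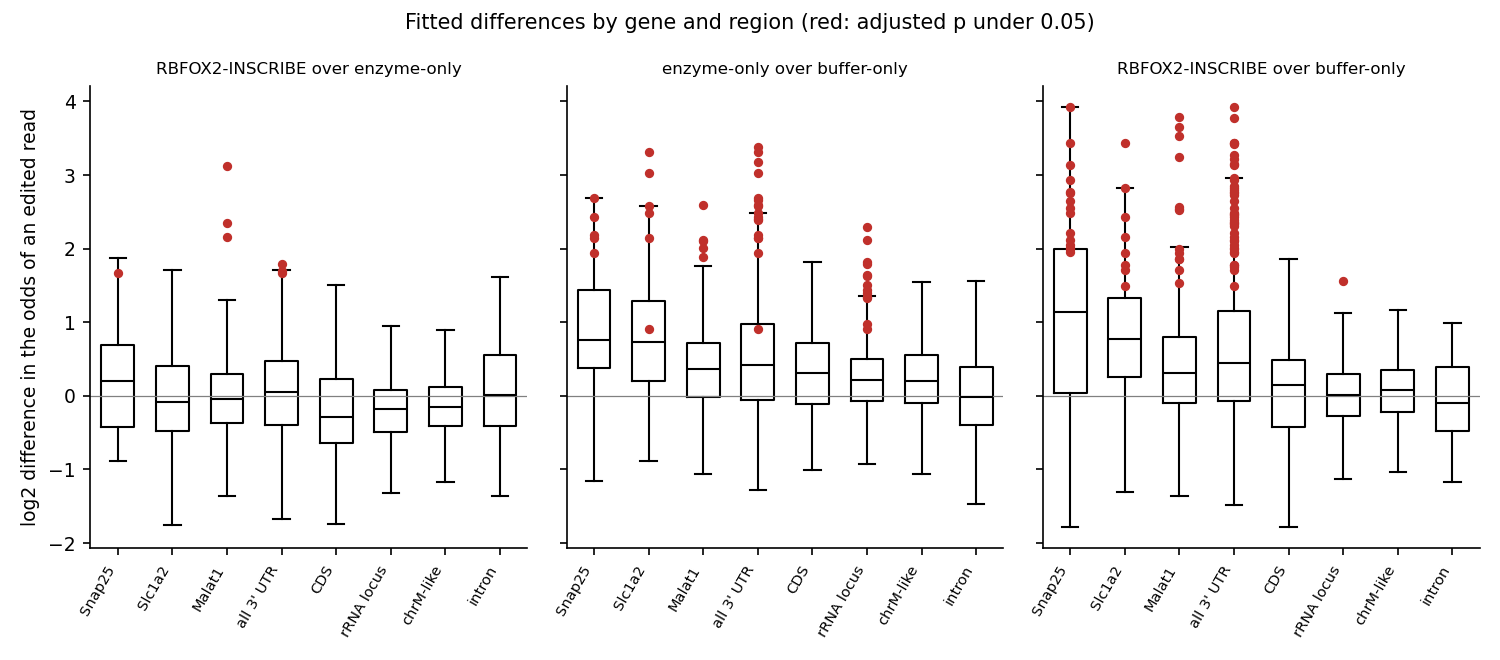
Boxes give the quartiles of the fitted log2 difference in the odds of an edited read (y axis) over the sites of a gene or region (x axis) in each comparison, whiskers the range without outlying sites, and red points the called sites. The box of Snap25 is highest in RBFOX2-INSCRIBE over buffer-only slices, with a median of 1.14, while intron sites centre near 0 in all 3 panels.

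Within genes the called sites stood beside sites that were not called. Snap25 had 32 sites in a stretch of 818 nt of its 3' UTR (chr2:136781382-136782199), bounded by its first and last called site. In RBFOX2-INSCRIBE over buffer-only slices 29 of the 32 had a log2 value above 0 and 15 were called. In enzyme-only over buffer-only slices 30 were above 0 and 5 were called, and in RBFOX2-INSCRIBE over enzyme-only slices 26 were above 0 and 1 was called. The median fractions in this stretch were 0.198%, 0.11% and 0.0502% in RBFOX2-INSCRIBE, enzyme-only and buffer-only slices. In Slc1a2 a stretch of 210 nt (chr2:102789041-102789250) held 10 sites with median fractions of 0.734%, 0.505% and 0.186%, of which 6, 3 and none were called in RBFOX2-INSCRIBE over buffer-only, enzyme-only over buffer-only and RBFOX2-INSCRIBE over enzyme-only slices.

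**Figure D5:**
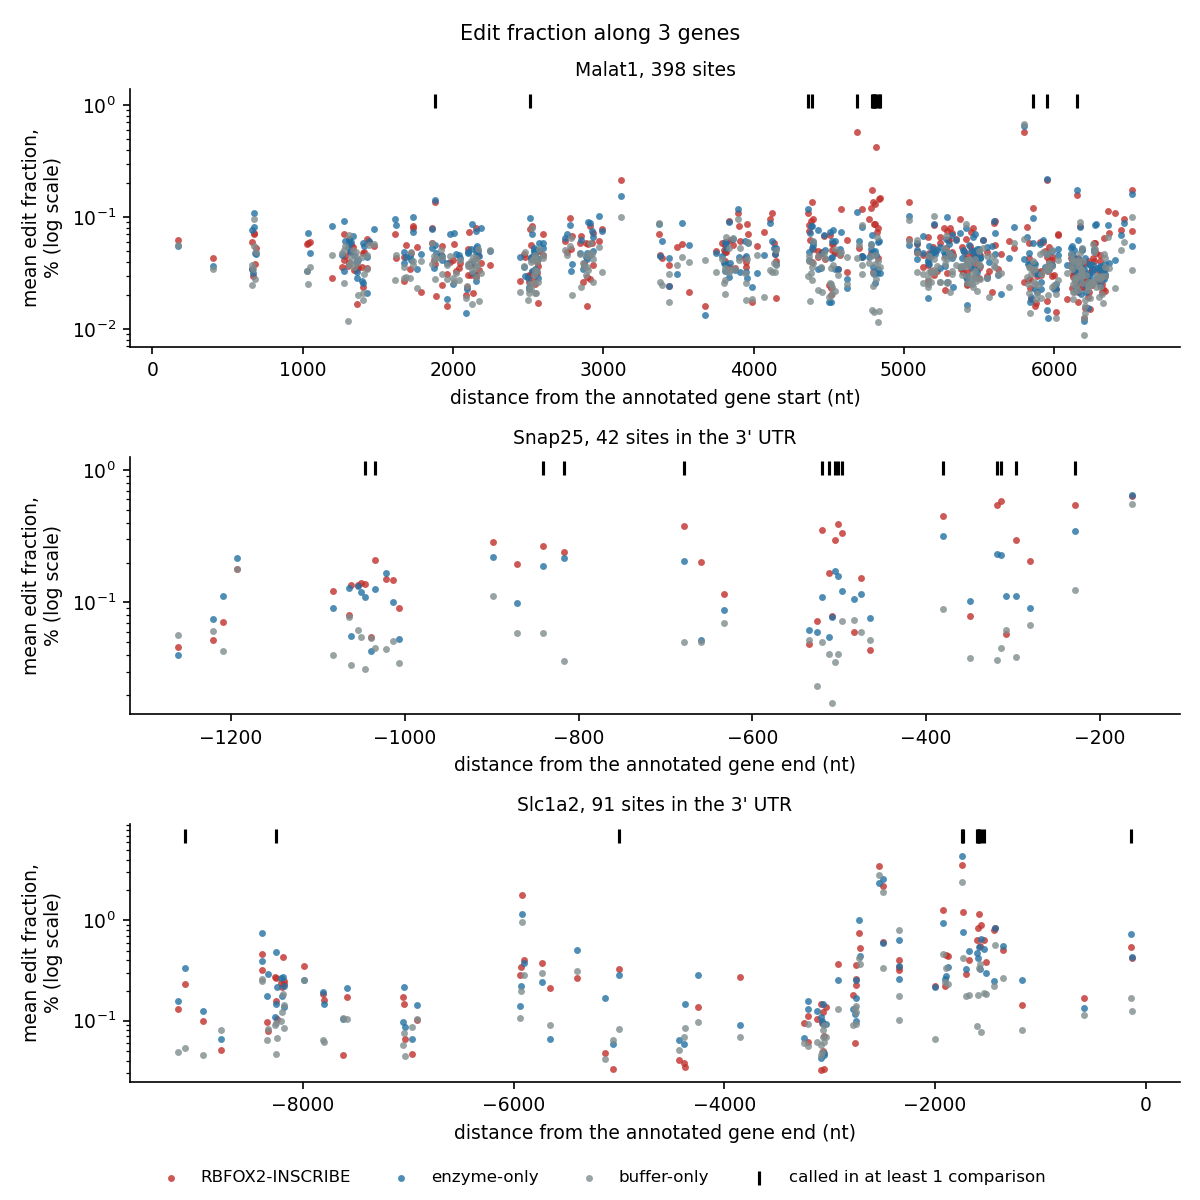
Points give the mean edit fraction in percent of each group (y axis, log scale) at the recurrent sites along Malat1 (distance from the annotated gene start) and along the 3' UTRs of Snap25 and Slc1a2 (distance from the annotated gene end), in nt, and black ticks mark sites called in at least 1 comparison. Buffer-only points lie lowest at most ticked sites, and the densest ticks of Malat1 mark the 150 nt stretch.

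Called sites differed in depth, fraction and base context from sites that were tested and not called. The 59 sites higher in RBFOX2-INSCRIBE than in buffer-only slices had a median of 3700 covering reads and 71 edited reads over 9 libraries, and 71.2% were in 3' UTRs. The 3063 sites not called had 14248 covering reads and 56 edited reads, with 16.6% in 3' UTRs. An A or U preceded the cytosine in 98.3% (91% to 99.7%) of the called and in 53.8% (52% to 55.5%) of the other sites. In enzyme-only against buffer-only slices the shares were 94.9% (83.1% to 98.6%) of 39 called and 54.1% (52.4% to 55.9%) of 3079 other sites, and in RBFOX2-INSCRIBE against enzyme-only slices they were 100% (64.6% to 100%) of 7 and 54.6% of 3118. These are descriptions with no test, since sites of 1 gene share their sequence and their reads.

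In the tests with no minimum of edited reads, every called site was below 5% in its mean over the 9 libraries. In these tests none of the 202 sites at or above 5% passed in any comparison, of which 167, 160 and 164 could be tested in RBFOX2-INSCRIBE against enzyme-only, enzyme-only against buffer-only and RBFOX2-INSCRIBE against buffer-only slices. None of the 504 sites shared with chromosome M, of the 107 intron sites or of the 202 coding sites was called in any of the 3 without such a minimum. In the same order 89, 82 and 82 intron and 199, 199 and 200 coding sites could be tested. The intron sites had a median of 33.4 covering reads. Over all positions tested 0.295%, 0.828% and 1.33% were called. With shares this small, no call says little about the intron sites, the coding sites or those at or above 5%. With at least 5 edited reads in every library, 2 sites of Gm29216 and 1 of Gm10925 were called lower in RBFOX2-INSCRIBE than in enzyme-only slices, as given above, and 1 of Gm29216 was called higher in enzyme-only than in buffer-only slices, and all sites of both pseudogenes are shared with chromosome M. The deepest Rn7sk site, at position 78175412, had no call, with 266095 covering reads and means of 0.039%, 0.0394% and 0.0391% in RBFOX2-INSCRIBE, enzyme-only and buffer-only slices. The 9 slices lay between 0.0355% and 0.043% and the groups overlapped.

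The called sites were also counted over lists of genes grouped by role, and the lists themselves were not tested. Of 26 presynaptic genes 11 had recurrent sites, 107 in all, and 1, 5 and 15 of them were called higher in RBFOX2-INSCRIBE over enzyme-only, enzyme-only over buffer-only and RBFOX2-INSCRIBE over buffer-only slices, every one in Snap25. None of the 20 sites of Vamp2, the 12 of Syp or the 6 of Syt1, which code for other proteins of the synaptic vesicle, was called. Given the small called shares over all positions tested, no call among so few sites says little about Vamp2, Syp or Syt1. Postsynaptic and receptor genes had 60 sites, of which 1, 0 and 4 were called, in Camk2a and Shank1. The list medians of the log2 values in the same order were 0.03, 0.67 and 0.39 for presynaptic and 0.12, 0.41 and 0.46 for postsynaptic genes, beside -0.08, 0.24 and 0.11 over all positions tested, of which 0.295%, 0.828% and 1.33% were called.

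Calmodulin and calcium signalling genes had 90 sites in 8 genes and 1 call, at Calm3. The 36 sites of Nrgn, a calmodulin-binding protein of dendrites, gave none. Chaperone and ubiquitin genes had 26 sites and Aldoa, a glycolytic enzyme, had 16, none of which was called in any comparison. The called shares over all positions tested were 0.295% in RBFOX2-INSCRIBE against enzyme-only, 0.828% in enzyme-only against buffer-only and 1.33% in RBFOX2-INSCRIBE against buffer-only slices. With shares this small, no call among so few sites says little about Nrgn, the chaperone and ubiquitin genes or Aldoa. Structured non-coding RNAs had 121 sites with 1 call, at Rn7s1 in enzyme-only over buffer-only slices. The cytoskeletal genes had 37 sites, with 1 call at Kif5a.

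Markers of neurons had 64 recurrent sites in Snap25, Syt1 and Map2, of which 1, 5 and 15 were called in the same order, all in Snap25, and the medians of the log2 values were 0.07, 0.79 and 1.03. Markers of astrocytes had 104, of which 0, 6 and 9 were called, and 0, 6 and 8 of these were in Slc1a2 and the other 1 in Glul. Their medians were -0.09, 0.73 and 0.77. Markers of oligodendrocytes had 29, of which 26 were in Mbp, and none was called, with medians of -0.14, 0.05 and -0.25. The shares and medians over all positions tested are those given above for the synaptic lists. At such shares, no call among the 29 sites of oligodendrocyte markers says little about these markers. No recurrent site lay in a marker of microglia, oligodendrocyte precursors, endothelial cells, choroid plexus or blood. Over all listed positions, all 8 neuron markers had edited reads in every library, whereas no blood marker did. The sum of edited reads over neuron markers lay between 4198 and 5280 per RBFOX2-INSCRIBE library, between 3481 and 4205 per enzyme-only library and between 2065 and 3383 per buffer-only library. For astrocyte markers the sums lay between 4340 and 5250, between 3939 and 5046 and between 1897 and 3145, and for oligodendrocyte markers between 1317 and 1536, between 1395 and 1585 and between 883 and 1345. The total of edited reads per library was between 637430 and 784815 with RBFOX2-INSCRIBE, between 596938 and 702467 with enzyme only, and between 421269 and 664346 with buffer only. The sums were not scaled to these totals, and as counts of edited reads they do not measure the amount of a cell type. In tissue, a smaller share of a cell type and less RNA per cell cannot be told apart.

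No recurrent site lay in Rbfox1, Rbfox2 or Rbfox3. Among the genes drawn as example targets of the method, recurrent sites were found in App (1), Ywhag (2), Ogt (1) and Ppp3r1 (1). Only the App site was called, in enzyme-only over buffer-only and in RBFOX2-INSCRIBE over buffer-only slices, at 3.18 ± 0.52 and 2.8 ± 0.49. In RBFOX2-INSCRIBE over enzyme-only slices its log2 value was -0.38 ± 0.37 (adjusted p = 0.967, edgeR). This list is not independent of these samples.

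The authors' confident clusters held few of the recurrent sites: 320 lay in the RBFOX2-INSCRIBE list, 318 in the enzyme-only list and 313 in the buffer-only list, and 296 lay in all 3. After the authors' cleaning step 55 remained in the RBFOX2-INSCRIBE and 34 in the enzyme-only list. A confidence score above 0.5 together with a fraction below 0.8 in all 9 libraries, the filter of the methods, was met by 210 sites. Applied to the 6 libraries of a comparison, it was met by 0 of the 7 sites called in RBFOX2-INSCRIBE against enzyme-only slices. It was met by 1 of the 39 called in enzyme-only and 0 of the 59 called in RBFOX2-INSCRIBE against buffer-only slices. Of the 59 sites higher in RBFOX2-INSCRIBE than in buffer-only slices, 6 lay in the confident RBFOX2-INSCRIBE list, 4 in the enzyme-only list and 1 in the buffer-only list.

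The edge of the selection lay among weakly edited sites. Of the 3160 sites, 1250 (39.6%) had exactly 1 edited read in at least 1 library, with a median of 4797 covering reads and 0.0539%. Just outside were 2649 positions listed in 8 of 9 libraries, with a median of 3095 covering reads and 0.0696%. The missing library was a buffer-only one for 1413 of them, an enzyme-only one for 668 and an RBFOX2-INSCRIBE one for 568. Buffer-only replicate 3, which had the fewest listed positions of all libraries with 279744, was missing for 696.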

How the data were processed

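Total RNA of 9 slices was sequenced as stranded single-end reads. Per the labels and methods, the authors trimmed reads with cutadapt, removed repeats and aligned to mm10 with STAR (2.5.2, with 2.4.0 also named), then ran SAILOR, which drops known variants, and FLARE. The deposited site lists give edited and covering reads per position as read counts, and a confidence score as a fraction between 0 and 1. The deposited cluster tables give counts of edited reads and a depth signal.

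Sites were joined by position and strand, and annotated with GENCODE vM21. Of 3129103 positions with chromosome M, 3127795 were C on the strand in the RefSeq GRCm38 genome, and 1308 had no base there. Tests used edgeR 4.0.16 in R 4.3.3 on edited and unedited reads, with a library effect and a group effect, a minimum of 10 covering reads and an adjusted p under 0.05, and were tested on simulated data. Alternatives used limma 3.58.1 and DESeq2 1.42.0. Medians of gene lists are beside those of all positions. The members, gene lists and tests were chosen with earlier results of these data known. Named sites are the 8 largest rises and falls per comparison among called sites whose groups did not overlap, 1 per gene, the genes with the most sites, the sites with the most edited reads, highest fraction or largest cover, and list members with the most edited reads. Values of some genes are not reported here.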

Additional observations from a re-analysis of the deposited data

How the results depend on the processing

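For the log2 differences of the sites named for their largest rises, 21 results were followed, a site counting once per comparison. Other sites named in the text were not among them. Of their 318 alternative values, 245 kept direction and call, 73 kept direction and lost the call, and none changed direction. Alternatives under which a site was not tested are not among the 318. Over all called sites, limma and DESeq2 kept every direction but fewer calls. In RBFOX2-INSCRIBE against enzyme-only slices limma kept 1 and DESeq2 2 of 7 calls. In enzyme-only against buffer-only slices they kept 3 and 5 of 39, and in RBFOX2-INSCRIBE against buffer-only slices 30 and 14 of 59. The number of called sites depended more on the setting. RBFOX2-INSCRIBE against enzyme-only slices, with 7 called sites, gave 0 with the methods' filter (196 sites left), 26 with at least 5 edited reads in every library, 1 with limma, 2 with DESeq2, 18 with edited reads alone and TMM, 17 with median-of-ratios factors, 13 with all 9 libraries in 1 fit, and 3 to 10 without 1 library. The filter left none of these 7 sites to test. In enzyme-only against buffer-only slices it left 1 of the 39 called sites, which was called again, and in RBFOX2-INSCRIBE against buffer-only slices none of the 59. The replicate block gave 4 calls in RBFOX2-INSCRIBE against enzyme-only, 32 in enzyme-only against buffer-only and 61 in RBFOX2-INSCRIBE against buffer-only slices. Deviations of same-numbered slices had correlations between -0.0167 and 0.0392. Most sites rest on few edited reads per library, so such low correlations cannot show whether the numbers pair the slices. Enzyme-only against buffer-only slices, with 39, gave 1 with the filter, 3 with limma, 5 with DESeq2, 24 with TMM, 24 with median-of-ratios factors, and 15 to 27 without 1 library. RBFOX2-INSCRIBE against buffer-only slices, with 59, gave 0 with the filter, 8 with at least 5 edited reads, 32 with limma, 14 with DESeq2, and 40 to 73 without 1 library. The number of recurrent sites was 210 with the filter, 1502 with at least 3 edited reads in every library, and 3315 to 3856 when 1 library was left out. Without the ribosomal RNA locus and the sites shared with chromosome M, an alternative chosen after seeing the data, the median fraction was 0.0619% in RBFOX2-INSCRIBE, 0.0653% in enzyme-only and 0.0503% in buffer-only slices. The median fraction over 35 named sites ranged, without 1 library, from 0.492% to 0.539% in RBFOX2-INSCRIBE, from 0.251% to 0.27% in enzyme-only and from 0.0615% to 0.0917% in buffer-only slices. These 35 include sites chosen for their rise between the same groups, so their order of groups is no independent result. Over all recurrent sites the medians averaged 0.0399%, 0.0443% and 0.0368% in RBFOX2-INSCRIBE, enzyme-only and buffer-only slices. An A or U preceded the cytosine in 61.9% with 1 site per gene, against 54.6%. The causes were not tested, except that the filter left fewer sites. Sites resting on 1 edited read in a library, 39.6% of all, limit what the depth can show. A site with no edited read in a library was not listed there. Falls below 1 read over the covering reads could therefore not be seen, while some rises from that level were called.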
